A study of Homo sapiens with 6 samples.

Results

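The late state of phorbol ester treatment was described by comparing chromatin accessibility in K562 cells after 72 h with that in untreated cells, over every site of the deposited site table. The comparison used 4 of the 6 libraries of the series (2 untreated and 2 at 72 h) and all 181135 listed sites, of which 177759 passed a filter on low counts and were tested. K562 is an established human cell line from a chronic myelogenous leukaemia, described in the labels as wild type. All libraries came from this line, and the treated cells received 25 nM phorbol 12-myristate 13-acetate (PMA). The untreated cells are the 0 h point of the same course. The remaining 2 libraries, from 6 h of PMA, are not compared here, but they entered the filter, the scaling and the shared estimate of the spread. Nothing in the labels says that the libraries of a group came from separate cultures, so p-values measure the spread between these libraries, which may be technical.

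ATAC-seq counts the insertions of a transposase into open chromatin, so a site with more reads was more accessible in the cells sampled. Active gene starts are open in most cell types, whereas enhancers, which lie inside genes or between them, tend to be open only in the cells that use them. PMA mimics diacylglycerol and activates protein kinase C, which signals through the ERK cascade to AP-1, a family of paired FOS and JUN transcription factors. K562 cells carry features of early red cells, and PMA is known to move them towards a megakaryocyte-like state, in which they stop dividing, enlarge and attach. In bulk chromatin a change in some of the cells and a smaller change in all of them cannot be told apart.

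A small set of gene starts opened and a large set became less accessible relative to the rest of the genome, and 6 promoters from the 2 ends of that range are shown. They are the 3 starts with the strongest gain and the 3 with the strongest loss among starts at a site with a mean CPM (counts scaled to library size, defined below) of 5 or more. Each line gives the 250 bases before the start from RefSeq (GRCh38.p14), 5′ to 3′ along the gene, and capitals mark matches on either strand to any of 9 short motifs searched.
INHBA, chr7:41703091-41703340, minus strand: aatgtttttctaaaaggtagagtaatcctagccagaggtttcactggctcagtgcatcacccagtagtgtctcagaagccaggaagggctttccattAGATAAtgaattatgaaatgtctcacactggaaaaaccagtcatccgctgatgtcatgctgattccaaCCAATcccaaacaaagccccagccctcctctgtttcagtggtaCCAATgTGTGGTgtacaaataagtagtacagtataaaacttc
CCL3L3, chr17:36196759-36197008, minus strand: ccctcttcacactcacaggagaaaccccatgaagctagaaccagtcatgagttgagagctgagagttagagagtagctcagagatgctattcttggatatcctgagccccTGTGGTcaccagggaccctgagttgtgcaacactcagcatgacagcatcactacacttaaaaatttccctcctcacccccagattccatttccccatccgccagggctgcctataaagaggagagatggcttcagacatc
EMP1, chr12:13196476-13196725, plus strand: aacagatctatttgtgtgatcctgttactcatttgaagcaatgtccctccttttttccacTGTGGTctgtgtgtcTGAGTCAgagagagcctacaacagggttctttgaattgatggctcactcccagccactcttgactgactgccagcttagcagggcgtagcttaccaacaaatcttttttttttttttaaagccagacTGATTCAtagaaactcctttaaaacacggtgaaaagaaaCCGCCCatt
C17orf99, chr17:78146135-78146384, plus strand: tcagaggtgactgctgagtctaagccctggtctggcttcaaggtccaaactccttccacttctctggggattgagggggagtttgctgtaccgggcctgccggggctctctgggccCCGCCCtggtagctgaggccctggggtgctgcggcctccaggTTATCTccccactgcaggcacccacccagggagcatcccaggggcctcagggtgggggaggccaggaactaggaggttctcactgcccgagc
PRSS16, chr6:27247451-27247700, plus strand: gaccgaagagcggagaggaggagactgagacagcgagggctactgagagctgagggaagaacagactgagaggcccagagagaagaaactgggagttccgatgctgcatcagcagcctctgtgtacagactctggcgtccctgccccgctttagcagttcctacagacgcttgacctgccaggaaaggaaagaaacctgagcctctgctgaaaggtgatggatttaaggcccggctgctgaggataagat
SYT10, chr12:33439820-33440069, minus strand: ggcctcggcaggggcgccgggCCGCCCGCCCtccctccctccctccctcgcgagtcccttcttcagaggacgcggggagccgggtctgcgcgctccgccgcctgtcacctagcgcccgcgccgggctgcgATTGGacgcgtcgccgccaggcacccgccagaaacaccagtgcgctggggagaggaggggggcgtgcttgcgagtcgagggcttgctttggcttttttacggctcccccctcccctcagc
INHBA encodes the activin A subunit, EMP1 an epithelial membrane protein and CCL3L3 a chemokine of a multi-copy family whose copies can share reads, so its count is uncertain. SYT10 encodes a synaptotagmin and PRSS16 a thymic serine protease. The EMP1 sequence holds 2 matches to the AP-1 motif TGANTCA, and the INHBA sequence holds 2 CCAAT boxes, 1 match to AGATAA, the letters bound by GATA factors, and 1 to TGTGGT, those bound by RUNX factors.

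Values behind these sequences are given in CPM, counts per 1e6 counts of the library after scaling by the trimmed mean of M-values (TMM). At the INHBA start (chr7:41702831-41703463) the untreated libraries had 0.455 and 0.0956 CPM and the 72 h libraries 10.4 and 12.2 CPM, a log2 fold change of 5.47 ± 0.43 (SE; edgeR quasi-likelihood adjusted p = 1.08e-09). The EMP1 start went from 0.65 and 1.2 CPM to 14.3 and 15.5 CPM, and the CCL3L3 start from 0.455 and 0.43 to 10.8 and 8.68 CPM. In all 3 the groups were far apart, with almost no reads before treatment. The C17orf99 start fell from 18.7 and 22.9 CPM to 1.58 and 1.58 CPM, a log2 fold change of -3.71 ± 0.25 (edgeR adjusted p = 2.55e-10). PRSS16 went from 14.2 and 9.27 to 0.932 and 1.13 CPM and SYT10 from 14.4 and 21.4 to 2.05 and 1.72 CPM. Each of these 6 starts kept its direction and its call under all 5 scalings tried, which their choice as extremes made likely.

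Over all sites tested 67920 sites were gained, meaning higher at 72 h with an edgeR adjusted p under 0.05 (38.2% of those tested), and 51969 were lost (29.2%). The split depended on the scaling: gained sites made up 56.7% of all calls with TMM, 71.1% with total counts, 51.6% with DESeq2's size factors (RLE), 47.1% with loess offsets that vary with a site's height, and 84.0% with TMM factors taken from sites that had a peak in all 6 libraries. The median log2 change of a site moved with it, from 0.29 with TMM to 0.11, 0.79, -0.04 and 1.26 under RLE, total counts, loess and shared-site factors. Calls that held under all 5 numbered 49149 gained sites (27.6%) and 16402 lost sites (9.23%). TMM-scaled counts lay above both untreated libraries in both 72 h libraries at 84731 sites (47.7%) and below both at 65667 (36.9%). This split is tied to the TMM factors as well. Library totals were 17669446 and 24470037 counts untreated and 30934990 and 35548737 at 72 h. The top 1% of sites held 21.7% and 20.5% of the untreated counts against 10.95% and 11.05% at 72 h; the part of this flatter profile in the results was not tested.

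Because the zero point depends on the scaling, each site was also given a percentile: its place, from 0 for the strongest loss to 100 for the strongest gain, when all tested sites are ordered by log2 fold change. A scaling with 1 factor per library moves all sites together and leaves this order in place, and the Spearman correlation over sites between the TMM order and the orders from RLE, total counts and shared-site factors rounded to 1.00 (n = 177759 sites). It was 0.942 with the loess order and 0.914 with the order by change in rank within each library, which uses no scaling factor. By that rank change the medians of 25 genes leading the counts or ranks below moved beyond the SD between the 2 replicate orders. Those of 14 such genes did not. The order from the replicate 1 libraries alone correlated with that from the replicate 2 libraries at 0.904. The percentiles of genes and windows below are medians over their sites, and they describe rank only, with 50 as the middle site.

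Gene starts lost rank and distant sites gained it. Of 9150 sites at the start of a listed gene, 297 were gained (3.25%) and 8192 lost (89.5%), with a median percentile of 15.9. Among sites inside a gene but away from its start 39.3% were gained and 27.2% lost, and over 50 kb from any protein-coding gene 46.8% were gained and 20.5% lost. The share gained rose with distance from the nearest listed start, from 15.1% under 1 kb to 31.6% at 1 to 10 kb, 36.7% at 10 to 50 kb, 44.8% at 50 to 200 kb and 48.2% beyond 200 kb. Start sites took 31.99% and 33.5% of all counts in the untreated libraries and 17.8% and 17.8% at 72 h, so the 2 groups did not overlap. Sites inside genes took 34.4% and 33.8% of counts before and 40.4% and 40.8% after.

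**Figure D1:**
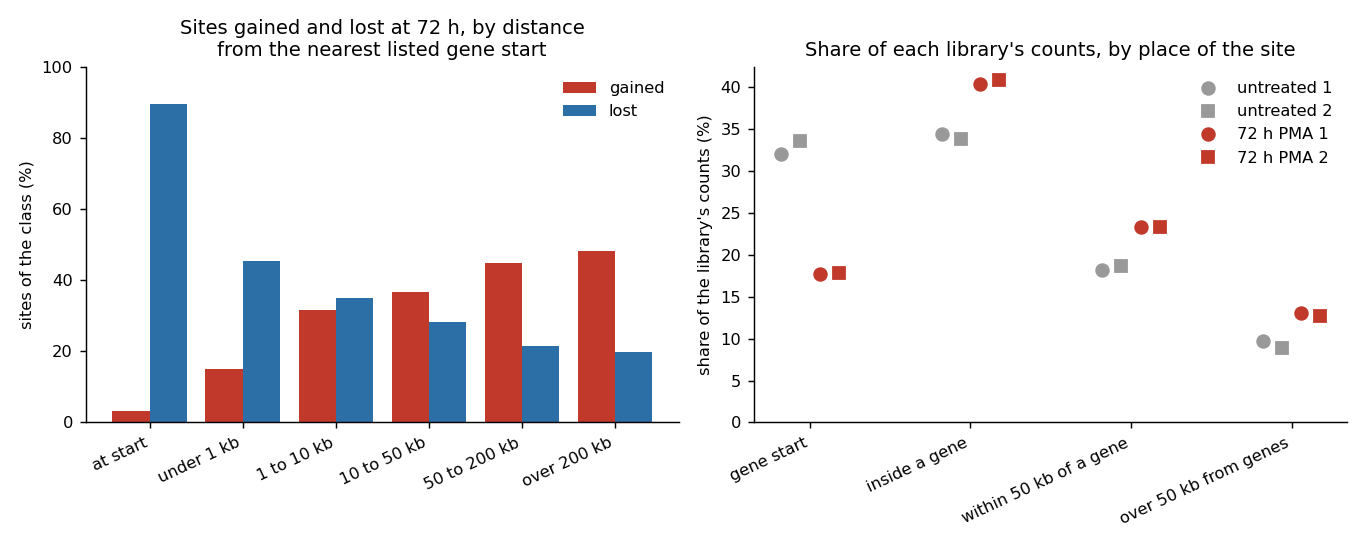
Left, percent of sites gained (red) and lost (blue) at 72 h, by distance from the nearest listed gene start; right, percent of each library's counts that fell on sites of 4 kinds, with 1 point per library. Losses fall from 89.5% at starts to 19.8% beyond 200 kb, and the share of counts at starts drops from 31.99% or more to 17.8%.

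Start sites are also wide (median 1131 bases against 583 inside genes) and rich in counts, and their position in the ranking depended on how the height of a site was handled. With loess offsets the median percentile of start sites was 42.1 rather than 15.9, the share lost 49.7% and the median log2 change -0.36. With shared-site factors 50.2% were lost and the median change was -0.38, against -1.34 with TMM. Loss under all 5 scalings was called for 27.3% of start sites and gain for 2.3%. Chromosome 8 is not included in these start-based values or in any of the classes by place and distance, because its starts were not used here. Chromosome Y and unplaced scaffolds are left out of the classes too. The shares of library counts are nevertheless taken of all tested sites, these included. In all, 4162 protein-coding genes have no start in the promoter table used here, and a site at such a start is not counted among the start sites. Outside chromosome 8 it falls among the sites inside a gene, unless it also lies at a listed start.

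The promoters of gained and lost starts held these motifs in different shares. At 10115 genes whose start lay in a tested site, 300 starts were gained and 9132 lost. The AP-1 motif TGANTCA occurred in the 250 bases before 30.0% of the gained starts, 3.03% of the lost starts and 5.05% of all 15812 listed promoters. The RUNX letters TGTGGT were present in 19.3%, 6.76% and 8.90%, and AGATAA in 12.7%, 3.80% and 6.84%. The reverse order held for the ETS letters CCGGAAG, in 2.67% of gained, 18.0% of lost and 11.8% of all promoters, and for the GC box GGGCGG, in 32.3%, 72.6% and 56.0%. The median ratio of observed to expected CpG was 0.27 before gained starts, 0.85 before lost starts and 0.74 over all promoters. Over the 10115 starts at a tested site, the AP-1, RUNX and AGATAA shares were 4.22%, 7.34% and 4.39%. The ETS and GC box shares there were 16.8% and 70.1%, and the median CpG ratio was 0.83. Lost starts made up 90.3% of these, so their values lie near this background by construction. These are matches of letters on both strands, not measured binding.

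Of 1629 genes with a start in a tested site and 10 or more tested sites inside the gene, the start was lost in 1407 and gained in 69. Over all 10115 starts at a tested site 90.3% were lost and 2.97% gained. In 741 of the 1407 the interior nevertheless held more gained than lost sites, and in 569 more lost than gained. With TMM the start ranked below the gene's interior in 1531 of the 1629, with a median percentile of 15.5 at starts and 49.9 inside. This comparison within genes was not repeated with loess offsets. Under these the median percentile was 42.1 over all start sites and 50.7 over sites inside genes. At CAMTA1 the start fell from 191 and 210 CPM to 54.1 and 57.7 CPM, while 77 of 127 interior sites were gained and 11 lost.

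Each site was then given to the genes it overlaps, or else to the nearest protein-coding gene within 50 kb, and genes were ranked by their numbers of gained and lost sites. The 12 genes with the most gained sites were long ones, from 354 to 2474 kb. PTPRM, a receptor tyrosine phosphatase that holds cells together, had 83 gained and 1 lost of 98 tested sites. RBFOX1, a splicing regulator, had 82 gained and 1 lost of 98, and CAMTA1, a calmodulin-binding transcription activator, 81 gained and 14 lost of 136. KAZN followed with 75 of 158, SNX29, a sorting nexin, with 74 of 100, and SUGCT, a mitochondrial CoA transferase, with 73 of 89. LTBP1, which binds latent TGF-beta in the matrix, had 66 of 102. The calcium channel gene CACNA1E had 65 of 77, the zinc finger gene HIVEP3 65 of 85 and KCNMA1, the calcium-activated potassium channel, 61 of 81. RAD51B had 61 of 95 and SH3KBP1, an endocytic adaptor, 59 of 72.

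Counts per gene follow gene length, so the summed counts and the ranks are given beside them. Summed over its sites, PTPRM had 93.1 and 75.5 CPM untreated and 422 and 378 CPM at 72 h (log2 fold change 2.25 ± 0.12, edgeR adjusted p = 1.45e-09). RBFOX1 rose from 50.4 and 50.6 CPM to 269 and 270 CPM, by 2.42 ± 0.10, and CACNA1E from 64.7 and 61.5 CPM to 360 and 356 CPM, by 2.50 ± 0.10. Their median percentiles were 87.9, 91.8 and 87.1. CAMTA1, with its tall start site, rose only from 499 and 496 CPM to 729 and 689 CPM, and its median percentile was 71.2. Among these genes with the most gained sites, SH3KBP1 had 16.7 per 100 kb and LTBP1 14.6, against 3.31 in RBFOX1, which spans 2474 kb. These densities divide all gained sites assigned to a gene, including those outside it, by the gene's length. The tallest PTPRM site, at the 5′ end of the gene (chr18:7566590-7567584), went the other way, from 26.0 and 21.0 CPM to 12.1 and 11.4 CPM. The strongest gain inside the gene (chr18:8219139-8220147) went from 0.455 and 0.0478 to 8.57 and 5.69 CPM.

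The most lost sites lay at GSE1, which had 65 lost and 12 gained of 116 sites, and NFIA, a transcription factor, 42 lost and 8 gained of 65. SGMS1, a sphingomyelin synthase, had 39 lost of 78, and ARID1B, a subunit of the BAF remodelling complex, 35 lost but 19 gained of 70. IQSEC1 had 33 of 89 and ZFPM2, a GATA cofactor, 32 of 54. RABGAP1L had 29 of 54, ITPR1, a receptor that releases calcium from stores, 28 of 78, PRKAR2B, a regulatory subunit of protein kinase A, 27 of 36, and the zinc finger gene RREB1 27 of 41. LRRC37A2, with 27 of 69, belongs to a family of near-identical copies that can share reads and is uncertain. KAZN stood in both rankings, with 29 lost and 75 gained sites, and its summed counts gave no call (0.17 ± 0.09, edgeR adjusted p = 0.0948).

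**Figure D2:**
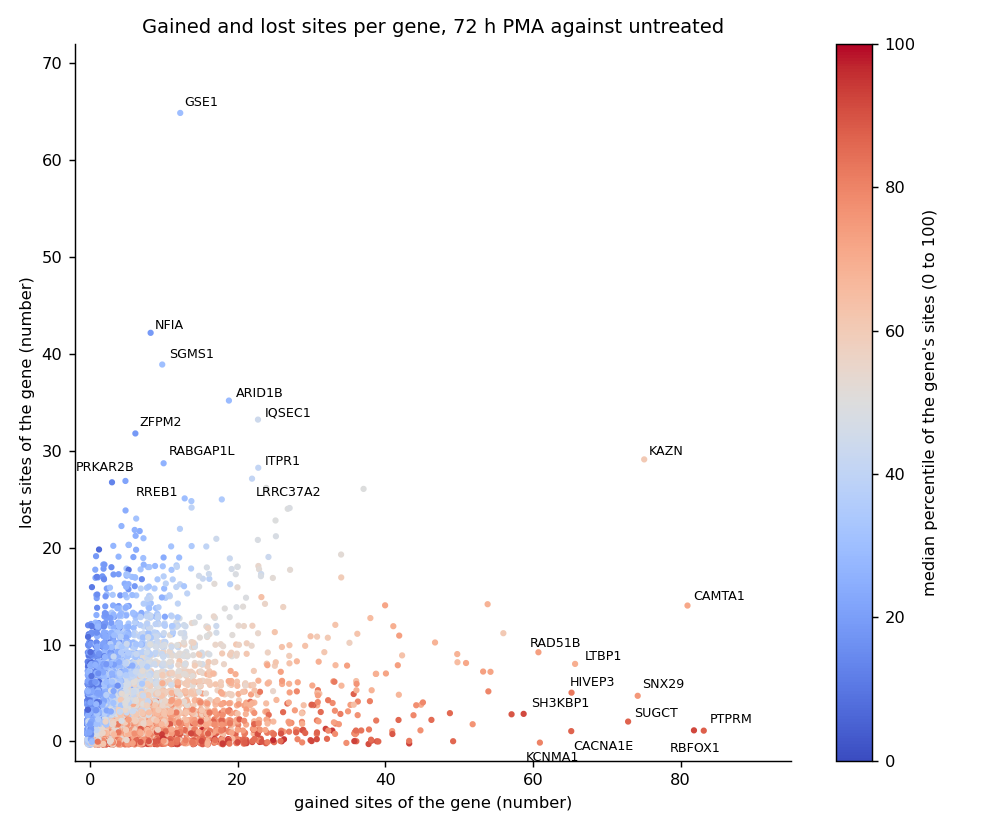
Each point is a gene, placed by its number of gained (x) and lost (y) sites at 72 h and coloured by the median percentile of its sites; points are shifted by up to 0.3 to show overlaps, and the genes leading either count are named. GSE1 stands alone with 65 lost sites, PTPRM and RBFOX1 lie at the right with 83 and 82 gained sites, and KAZN is high in both.

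Summed over their sites, NFIA fell from 364 and 394 CPM to 182 and 178 CPM (log2 fold change -1.07 ± 0.10, edgeR adjusted p = 8.29e-08) and PRKAR2B from 301 and 307 to 149 and 145 CPM. Their median percentiles were 18.8 and 13.0, against 42.6 for the median of all 13947 genes tested, and 16.3 and 14.6 with loess offsets. GSE1 fell from 1252 and 1452 to 683 and 718 CPM. Within GSE1 the strongest loss (chr16:85474746-85475343) went from 7.34 and 3.82 CPM to 0.595 and 0.142 CPM, while its tallest site (chr16:85381744-85382631) went from 83.1 and 85.1 to 38.7 and 40.8 CPM. The strongest loss assigned to ARID1B lay beyond the end of the gene (chr6:157226588-157227122) and went from 6.11 and 6.88 CPM to 0.285 and 0.401 CPM. Of all genes tested 3016 were higher in summed counts (21.6%) and 8704 lower (62.4%), and the median gene moved by -0.58. With shared-site factors the median gene moved by 0.38, and GSE1, SGMS1, RREB1 and ZFPM2 then lay at 0.02, 0.02, 0.04 and 0.01. NFIA and PRKAR2B stayed below 0, at -0.10 and -0.08, without a call.

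Ranking by median percentile among the 5171 genes with 10 or more tested sites put smaller genes first. INHBA led with 98.1, and 13 of its 14 sites were gained; summed, it rose from 11.7 and 6.6 CPM to 80.1 and 81.0 CPM. EMP1 followed at 96.8 (15 of 17 gained), then DMBT1, a secreted scavenger receptor, at 96.5 (26 of 27) and the predicted gene LOC124903407 on chromosome 14 at 96.4 (25 of 27). HTRA1, a secreted serine protease, had all 12 sites gained and rose from 3.06 and 4.69 CPM to 49.1 and 50.2 CPM. OR7E24, SEPTIN10 and FRMPD4 stood at 96.3, 96.2 and 95.4; OR7E24 lies in a repeated olfactory receptor family and shares sequence with its copies, and the SEPTIN10 sites also overlap RANBP2. At the EMP1 site with the strongest gain (chr12:13250200-13250940), beyond the end of the gene, the untreated libraries had 0 and 4 counts and the 72 h libraries 306 and 471. With loess offsets the lowest of these 8 medians was 94.2, of FRMPD4.

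At the other end CCDC200 had a median percentile of 5.47, SOX5 7.13, PLCXD1 7.42, TMEM250 7.76, VWDE 8.03, PGRMC2 8.06, RPL22L1 8.4 and HNRNPA3 8.41. SOX5, a transcription factor gene, had 20 of 24 sites lost and fell from 92.6 and 98.8 CPM to 32.7 and 30.5 CPM (log2 fold change -1.60 ± 0.10, edgeR adjusted p = 4.84e-09). VWDE had 9 of 10 sites lost and HNRNPA3, an RNA-binding protein gene, 8 of 11. The rank of CCDC200 does not describe that gene: 9 of its 14 sites overlap 9 small nuclear RNA genes of the U2 array beside it, whose copies can share reads. Those 9 sites together held 1428 and 1418 CPM untreated and 337 and 394 CPM at 72 h, and the gene's median percentile was 40.5 with loess offsets. PLCXD1 lies in the pseudoautosomal region shared by X and Y and moved to 24.8 with loess offsets. The other 6 stayed at or below 13.4.

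Sites called the same way often lay side by side. Of sites followed within 10 kb by another site, 54.1% of those after a gained site were gained, against 38.0% over all such pairs, and 45.5% of those after a lost site were lost, against 29.7%. Runs of 10 or more consecutive sites that all ranked above the 66.7th percentile numbered 402, and runs below the 33.3rd percentile 171. In windows of 500 kb, 1038 of 4005 tested were higher in summed counts (25.9%) and 2377 lower (59.4%).

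Of the 6 highest ranked windows, among those with 20 or more tested sites, 5 hold only 1 or 2 genes. The window chr7:41500001-42000000, which holds INHBA and part of GLI3, a Hedgehog pathway transcription factor, had 45 of 47 sites gained and a median percentile of 96.3. Its summed counts went from 31.7 and 22.8 CPM to 210 and 208 CPM (log2 fold change 2.95 ± 0.13, edgeR adjusted p = 1.41e-14). The adjoining window chr7:41000001-41500000, with the end of SUGCT, had 47 of 48 sites gained and rose from 16.96 and 14.3 to 185 and 172 CPM. Its strongest site (chr7:41033536-41034044) had 0 counts in both untreated libraries and 231 and 294 at 72 h, at least 38.2-fold higher against a floor of 3 counts per untreated library. In chr17:72000001-72500000, around SOX9, a developmental transcription factor, 32 of 33 sites were gained and the sum rose from 14.9 and 13.0 to 185 and 191 CPM. RBFOX1 (chr16:5500001-6000000, 46 of 49), FAM135B (chr8:138000001-138500000, 22 of 27) and HTRA1 with DMBT1 (chr10:122500001-123000000, 45 of 55) made up the 6. The last window has 11 genes and rose by only 0.75 in summed counts, and 6 of its sites were lost. Its median percentile was 94.0, or 80.3 by rank change within each library.

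**Figure D3:**
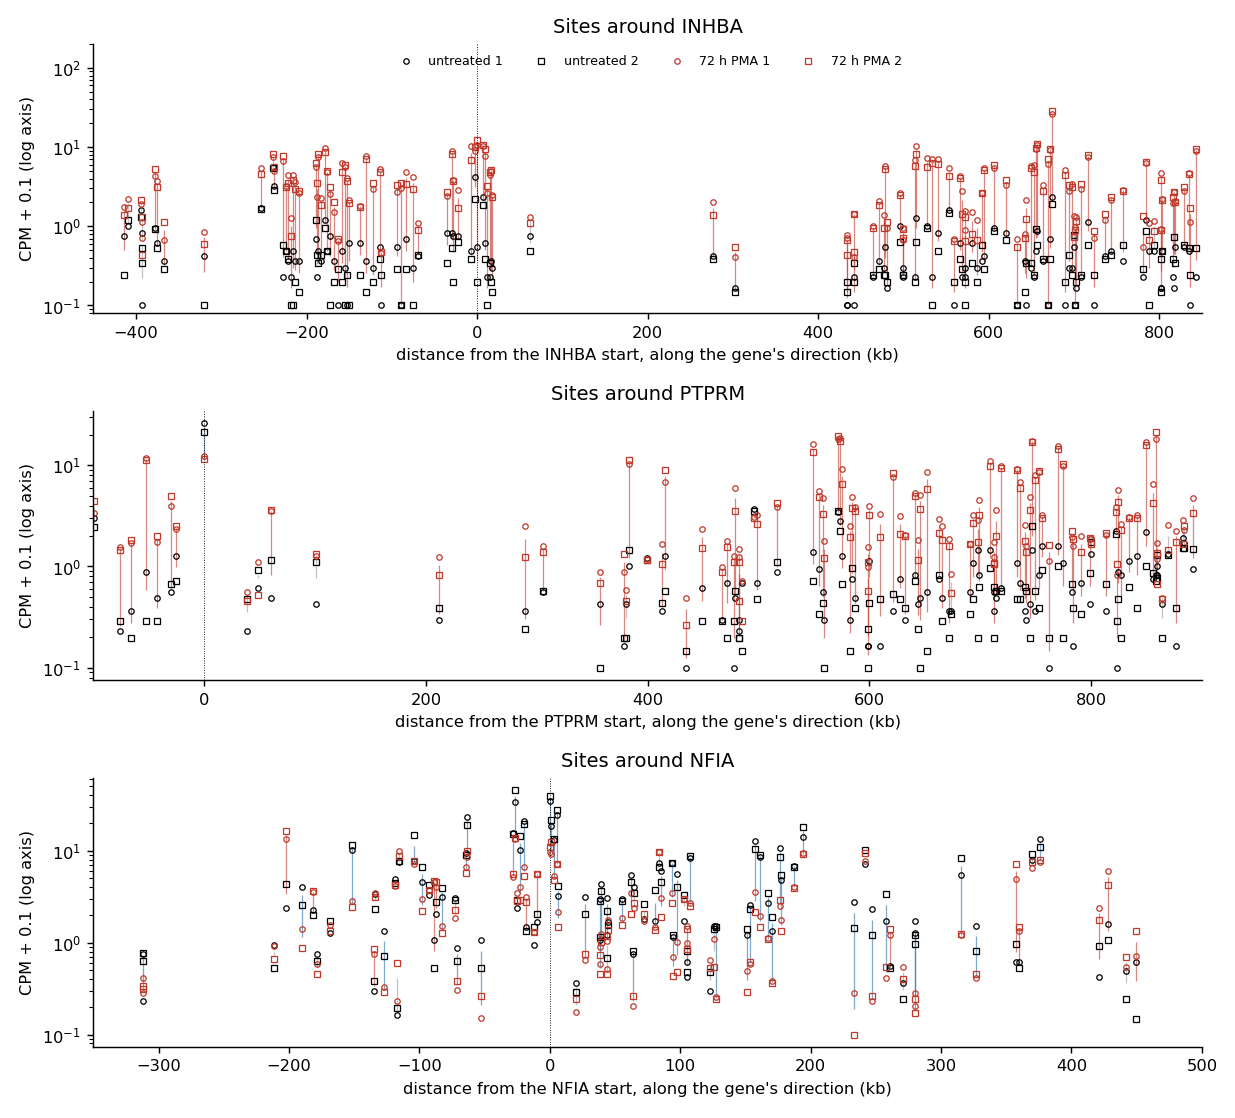
CPM of every tested site (log axis, 0.1 added) against its distance from the start of INHBA, PTPRM or NFIA in kb; black, untreated; red, 72 h PMA; circles and squares, libraries 1 and 2; joining lines are red for gained, blue for lost and grey for uncalled sites. Around INHBA the gained sites form 2 blocks, the start and the region before it, and the SUGCT end beyond 400 kb; PTPRM loses height at its start and gains along its far part, and NFIA loses height over most of its length.

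Windows that held the most gained sites included 2 with no protein-coding gene. In chr18:8000001-8500000, inside PTPRM, 74 of 85 sites were gained. In chr12:115000001-115500000, which no protein-coding gene overlaps, 66 of 71 were gained and none lost, and the sum rose from 37.6 and 38.4 CPM to 274 and 298 CPM. The other gene-free window, chr2:217000001-217500000, had 65 of 83 gained. The window of CD44, the hyaluronan receptor, with PAMR1 and SLC1A2 (chr11:35000001-35500000) had 66 of 89 gained and rose from 185 and 195 to 458 and 471 CPM. LTBP1 with RASGRP3 (chr2:33000001-33500000, 67 of 98) and GLIPR1 with KRR1 (chr12:75500001-76000000, 68 of 90) completed the 6. All 6 rose under every scaling run on windows.

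The longest of the high-ranking runs fell in the same places. Runs and windows are ranked on the same site percentiles, so this overlap is not a separate result. A run of 52 sites over 302 kb lay inside PTPRM, with 51 gained. Another of 45 sites over 421 kb started in SUGCT and reached beyond it, all gained, and a run of 43 over 245 kb joined INHBA to GLI3, all gained. Summed over the INHBA run the untreated libraries had 20.7 and 12.7 CPM and the 72 h libraries 191 and 189 CPM. Next, among runs with 50% or more of their sites at a gene, came 38 sites over PLEKHA1, HTRA1 and DMBT1, 34 near WSCD1, 33 in SH3KBP1 and 32 in PPFIBP1; this choice of runs was made after seeing the data.

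The 3 longest of the low-ranking runs, of 75, 62 and 47 sites, all lay between 121586663 and 123882984 of chromosome 1, in modelled centromere sequence made of near-identical repeats, where reads cannot be placed to 1 copy; no gene is assigned to them. The window with the most lost sites, chr1:122500001-123000000, lies there too (76 of 87), and these counts are uncertain. Among low-ranking runs with 50% or more of their sites at a gene, a choice made after seeing the data, the longest was in the histone gene cluster of chromosome 6, with 31 sites over 181 kb, 30 of them lost; it begins at H1-2 and ends at H1-3, with HFE between them. The histone genes there encode the core and linker proteins of the nucleosome, and several copies are alike in sequence. Its sum went from 945 and 1279 CPM to 359 and 406 CPM, and its median percentile was 10.98, or 34.9 with loess offsets. A run of 21 sites on chromosome 19 crossed PTBP1, AZU1, PRTN3 and ELANE, the last 3 being genes of neutrophil granule proteins; 20 were lost and the sum went from 406 and 384 to 117 and 115 CPM. Its median percentile was 8.75, or 15.2 with loess offsets.

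The lowest ranked window was the pseudoautosomal end of X, chrX:1-500000 (16 of 27 sites lost), with a median percentile of 8.17. It was 28.7 with loess offsets and 34.3 by rank change within each library. The next were chr9:101000001-101500000 (18 of 21, median percentile 9.21), chrX:115500001-116000000 with PLS3 (20 of 27), the gene-free chr2:58500001-59000000 (12 of 20), chr4:143500001-144000000 (17 of 27) and chr7:111000001-111500000 with IMMP2L (15 of 25). The chromosome 4 window holds the red cell surface genes GYPB and GYPE with SMARCA5 and FREM3, and its sum fell from 198 and 202 CPM to 66.2 and 71.5 CPM (log2 fold change -1.54 ± 0.09, edgeR adjusted p = 8.48e-13). Its strongest loss, beside GYPB (chr4:143975391-143976160), went from 17.6 and 16.9 to 1.53 and 1.32 CPM. GYPB and GYPE are near-identical copies, so the split of reads between them is uncertain. In the gene-free chromosome 2 window 1 site (chr2:58730656-58731930) had 28.9 and 24.1 CPM before and 3.52 and 3.52 CPM after. Most lost sites by number, besides the centromere and the histone window (65 of 90), lay in gene-dense windows of chromosome 19 at 0.5 to 1 Mb (74 of 88), 1 to 1.5 Mb (72 of 94) and 48.5 to 49 Mb (65 of 105), and of chromosome 22 at 19.5 to 20 Mb (63 of 110). Of these lost sites 36, 28, 22 and 25 stayed lost under all 5 scalings, in that order, and 18 in the histone window. Median percentiles were 13.5, 17.7, 25.4 and 27.0, or 25.6, 36.7, 42.3 and 40.5 by rank change within each library. Those of the histone window were 18.8 and 41.9. With shared-site factors the chromosome 22 and IMMP2L windows rose by 0.35 and 0.38 in summed counts (edgeR adjusted p = 0.000144 and 0.00337). Neither had a call with total counts.

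Windows with more genes ranked lower, apart from those with none. Windows that 1 to 2 protein-coding genes overlap had a median percentile of 60.8 (1083 windows) and gene-free windows 56.9 (219), falling to 46.2 with 6 to 10 genes (852) and 28.9 with over 20 (85). With loess offsets the last value was 38.2 and the order was kept. Chromosome 19 stood lowest, with 26.7% of sites gained and 44.4% lost, and chromosome 18 highest, with 44.5% gained and 21.7% lost.

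**Figure D4:**
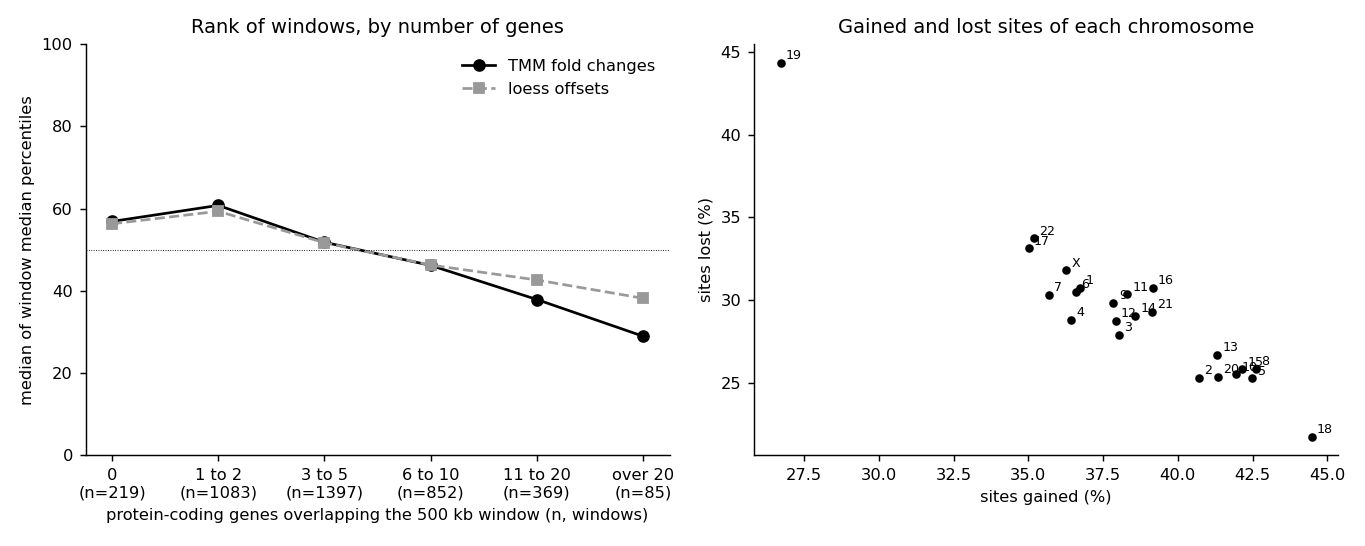
Left, median of the window percentiles against the number of protein-coding genes overlapping a 500 kb window, with TMM (black) and loess offsets (grey); right, percent of sites gained and lost for each chromosome. The left curve falls from 60.8 at 1 to 2 genes to 28.9 above 20, and chromosome 19 stands apart at 26.7% gained and 44.4% lost.

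Genes of the megakaryocyte lineage split. Of 17 with 3 or more tested sites, 7 rose in summed counts and 7 fell, against 21.6% and 62.4% of all genes. The split was 11 to 4 with total counts, where 35.4% of all genes rose and 41.6% fell, and 13 to 3 with shared-site factors, where 55.7% rose and 15.8% fell. THBS1, the thrombospondin of platelet granules, had 5 of 5 sites gained, a median percentile of 99.3, and 3.38 and 4.73 CPM before against 27.3 and 32.8 CPM after. VWF, which tethers platelets, had 19 of 28 gained (82.1) and rose from 34.1 and 30.2 to 89.9 and 91.4 CPM. FLI1, a transcription factor of the lineage, had 12 of 15 gained (76.8) and rose from 12.5 and 11.2 to 33.4 and 33.2 CPM. CD9, a platelet tetraspanin, had 13 of 23 gained. In the other direction NFE2, a late megakaryocyte factor also used by red cells, had 6 of 8 sites lost and fell from 182 and 180 to 71.0 and 74.5 CPM. ITGA2B, a subunit of the platelet fibrinogen receptor, had 5 of 5 lost and fell from 71.0 and 64.7 to 28.5 and 29.2 CPM. GP6 and GP1BB, platelet receptor subunits, ranked at 25.9 and 18.9; the GP1BB sites overlap SEPTIN5.

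Genes of red cells mostly fell with TMM. None of 17 tested rose and 15 fell, the median gene ranked at 26.9, and 89 of the list's 168 sites were lost against 22 gained. Of all genes 21.6% rose and 62.4% fell, and of all sites 38.2% were gained and 29.2% lost. The direction of single genes depended on scaling, with 2 rising and 10 falling under total counts (35.4% and 41.6% of all genes) and 6 and 7 under shared-site factors (55.7% and 15.8%). AHSP, the chaperone of alpha globin, had 4 of 4 sites lost, a median percentile of 0.75, and went from 16.3 and 11.2 CPM to 1.66 and 0.991 CPM (log2 fold change -3.37 ± 0.31, edgeR adjusted p = 9.69e-08). The fetal globin gene HBG1 fell from 78.3 and 76.5 to 24.5 and 26.6 CPM, with reads that may belong to its twin HBG2. HBZ, the embryonic zeta globin, fell from 36.1 and 39.5 to 11.4 and 12.3 CPM and GYPB from 87.1 and 90.1 to 22.7 and 20.5 CPM. AHSP, HBG1, HBZ and GYPB fell under every scaling run on gene sums. The start of HEMGN, another gene of the list, went the other way and was gained under all 5 scalings. It went from 2.40 and 3.25 CPM to 6.58 and 5.17 CPM (log2 fold change 1.04 ± 0.25, edgeR adjusted p = 0.000927), and was chosen after its values were seen. The regulators ranked highest in the list: GATA1 at 41.7, TAL1 at 44.1 and BCL11A at 44.8, the last 2 without a call.

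Among genes of adhesion and the cytoskeleton 6 of 23 rose and 13 fell with TMM, near the 21.6% and 62.4% of all genes. With total counts 11 rose and 3 fell (35.4% and 41.6% of all genes), and with shared-site factors 20 and 1 (55.7% and 15.8%). Under both of these a larger share of the list rose, and a smaller share fell, than among all genes. ITGA2, a collagen receptor subunit, had all 16 sites gained, ranked at 92.5 and rose from 14.6 and 14.3 CPM to 83.5 and 74.2 CPM. CD44 had 31 of 33 gained, ranked at 91.0 and rose from 29.6 and 33.9 to 172 and 186 CPM (log2 fold change 2.49 ± 0.12, edgeR adjusted p = 9.66e-10). The laminin receptor subunits ITGA6 and ITGA3 ranked at 81.3 and 79.4 and rose by 1.13 ± 0.12 and 1.499 ± 0.10. FLNA, which crosslinks actin, had 5 of 5 sites lost and fell from 202 and 246 to 90.01 and 97.5 CPM.

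Proteases and matrix genes held the largest share of gained sites of the 8 lists, 120 of 200 with 31 lost, against 38.2% gained and 29.2% lost over all sites. Of 16 genes 7 rose and 5 fell, against 21.6% and 62.4% of all genes; 12 rose and 1 fell with total counts (35.4% and 41.6% of all genes), and 13 and 0 with shared-site factors (55.7% and 15.8%). The collagen genes COL6A3 and COL4A1 had 23 of 25 and 17 of 19 sites gained and rose from 18.6 and 17.8 to 112 and 121 CPM and from 20.1 and 17.9 to 67.5 and 72.9 CPM. TIMP1, a protease inhibitor, showed how a tall site can outweigh the rest: 3 of its 4 sites were gained and its median percentile was 95.03, yet its summed counts fell by 0.40 on the log2 scale with TMM and turned to 0.10 and 0.57 with total counts and shared-site factors. PLAUR, the urokinase receptor, ranked at 39.2 and went from 158 and 121 to 61.6 and 58.6 CPM.

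Genes of PKC and ERK feedback were mixed, with 7 of 17 rising and 4 falling against 21.6% and 62.4% of all genes. With total counts 13 rose and 0 fell (35.4% and 41.6% of all genes), and with shared-site factors 17 and 0 (55.7% and 15.8%). DUSP5, a phosphatase that turns ERK off, had 18 of 21 sites gained, ranked at 85.5 and rose from 75.5 and 71.7 CPM to 151 and 173 CPM. PRKCE, a PMA-responsive kinase C isoform, had 52 of 74 gained, ranked at 76.5 and rose from 134 and 150 to 352 and 353 CPM. RASGRP1 and RASGRP3, exchange factors that phorbol esters also bind, ranked at 73.8 and 70.9. PRKCQ ranked at 43.4 and SPRY2, an ERK inhibitor, at 42.1, the lowest of the list.

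The AP-1 and immediate early genes themselves gave 2 rising and 11 falling of 19 with TMM, against 21.6% and 62.4% of all genes. With total counts 7 rose and 8 fell (35.4% and 41.6% of all genes), and with shared-site factors 10 and 4 (55.7% and 15.8%). The rising share with TMM was below that of all genes, and the other shares lay near those of all genes. JUN had 13 of 20 sites gained and ranked at 74.7, yet its sum went from 169 and 168 to 126 and 136 CPM with TMM and turned upward with total counts and shared-site factors; its start ranked at 15.2. ATF3 had 13 of 21 gained and ranked at 67.3 with no call in summed counts (edgeR adjusted p = 0.557). MAFG, JUND, FOSL1 and SRF ranked lowest, at 8.54, 13.8, 17.3 and 19.4, and all 4 fell under every scaling run on gene sums.

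All 17 cell cycle genes with 3 or more tested sites fell with TMM, as did all 9 housekeeping genes; the median log2 change was -1.24 in the first list and -1.20 in the second, and 62.4% of all genes fell. With total counts 15 of 17 and 8 of 9 fell, against 41.6% of all genes. With shared-site factors 2 cell cycle genes rose and 8 fell, and 1 housekeeping gene rose and 4 fell, where 55.7% of all genes rose and 15.8% fell. The median percentiles of the sites were 29.8 and 27.9, or 39.8 and 39.8 with loess offsets. MCM4, a subunit of the replicative helicase, fell from 79.6 and 87.3 to 26.6 and 31.3 CPM and MYB, a progenitor transcription factor, from 152 and 168 to 79.2 and 80.1 CPM. RPL13A and ACTB, used as reference genes elsewhere, fell from 108 and 131 to 25.6 and 21.5 CPM and from 251 and 445 to 111 and 121 CPM.

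Markers of monocytes and lymphocytes also had accessible sites. Of 9 monocyte and macrophage genes 2 rose and 5 fell, about the shares of all genes (21.6% and 62.4%), and their summed counts were 414 and 440 CPM untreated and 328 and 342 CPM at 72 h. CSF1R, the receptor for a macrophage growth factor, had 10 of 11 sites gained and rose from 34.1 and 34.9 to 92.2 and 105.1 CPM, while LYZ and FCGR1A ranked at 14.01 and 13.9. Of 6 lymphocyte genes 2 rose and 2 fell, with summed counts of 230 and 222 CPM against 182 and 188 CPM. Accessible sites are not expression, and the part of other cells in these values was not tested.

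**Figure D5:**
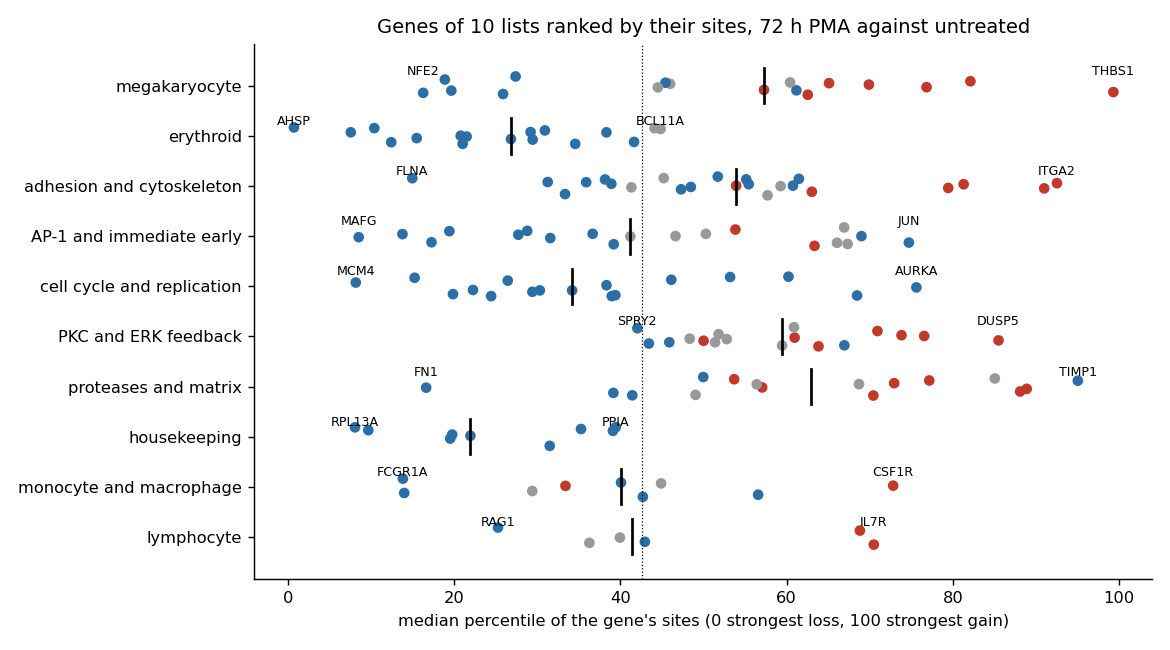
Median percentile of the sites of each gene with 3 or more tested sites, for 8 gene lists and 2 marker lists; red, summed counts higher, blue, lower, grey, no call with TMM; black bars, list medians; dotted line, the median of all genes at 42.6. THBS1 lies at 99.3 and AHSP at 0.75.

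MicroRNA hairpins, which release short RNAs that repress messages matching their seed (bases 2 to 8), overlapped 214 tested sites, of which 41 were gained and 143 lost (226 of the 1560 hairpins in RefSeq). Over all sites 38.2% were gained and 29.2% lost. Under all 5 scalings 32 of the 214 stayed gained and 37 stayed lost, and 59 of the 214 lay at a listed gene start, where 56 were lost with TMM and 11 under all 5. The gained ones included a cluster at 14q32, the imprinted domain in which LOC124903407 lies. There 10 of 49 listed hairpins overlapped 6 sites, all 6 gained. The site of MIR494 and MIR1193 (chr14:101029557-101030228) went from 0.26 and 0.191 CPM to 4.12 and 3.66 CPM, at a percentile of 98.1, and the site of MIR382, MIR134 and MIR668 ranked at 96.3. Mature sequences of this cluster are shown with the seed in capitals (RefSeq, GRCh38.p14), because these mature sequences lie within gained sites; none of those printed shares a seed with another.
hsa-miR-494-3p: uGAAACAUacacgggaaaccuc
hsa-miR-1193: gGGAUGGUagaccggugacgugc
hsa-miR-134-5p: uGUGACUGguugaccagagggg
hsa-miR-323a-3p: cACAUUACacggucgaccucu
hsa-miR-541-3p: uGGUGGGCacagaaucuggacu
Among the lost sites was that of MIR4732, which begins 42 bases from the hairpin of MIR144, a microRNA of red cells.
hsa-miR-144-3p: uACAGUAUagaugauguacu
hsa-miR-4732-5p: uGUAGAGCagggagcaggaagcu
This site ranked at 9.62, with a log2 fold change of -1.65.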

How the data were processed

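ATAC-seq libraries of K562 cells were compared as 2 untreated against 2 libraries after 72 h of PMA. The authors deposited whole-number read counts per site and library, which were used as raw counts. Per the submitters' processing notes the build is hg38 and the tools include Trim Galore 0.4.3, BWA 0.7.17, SAMtools 1.9, deepTools 3.0.1, MACS2, bedtools 2.26 and DESeq; their settings, any shift of read ends and how the site list was made are not given in the sources used here. The deposited table also holds the authors' log2 fold changes, adjusted p-values and class names, and the authors' peak lists hold a score, a fold enrichment and −log10 p and q per peak, called per library. Of these, only the peak positions (for 1 scaling) and the log2 fold changes and classes (for description) were used.

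Counts were fitted with edgeR 4.0.16 (R 4.3.3), with TMM scaling, filterByExpr with a minimum count of 10 and a quasi-likelihood model over all 6 libraries; p-values were adjusted by Benjamini-Hochberg over all features tested, with a threshold of 0.05. Gene and window sums were fitted likewise, from 3 and 10 tested sites. A permutation test of 2 against 2 libraries cannot go below p = 0.333, so none was used. Replicates of each group differed beyond sampling noise (chi-square per degree of freedom 4.67 untreated and 3.5 at 72 h), so all were kept as separate samples.

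Sites were assigned with RefSeq's GRCh38.p14 gene table (19974 protein-coding genes). A site counted for every gene it overlapped, or for the nearest gene end within 50 kb. Chromosome Y (81 sites) and unplaced scaffolds (927 sites) were left out of this step, and gene starts were used where the promoter table lists them (15812 genes). Named items follow a rule. Genes are the 12 with the most gained and lost sites and up to 4 at each end of a list. Also named are the 8 with the highest and lowest median percentile among genes with 10 or more sites. To these come 6 windows of each kind, 3 longest runs and 3 promoters at each end. Per item the strongest and the tallest site are named. The strongest was sought among sites with a mean CPM of 2 or more and no overlap between untreated and 72 h libraries. The separation of the groups at such a site therefore follows from the choice. The comparison, gene lists and rules were chosen with earlier results of these data known. Alternatives were other scalings, DESeq2 1.42.0, filters, thresholds, window size, 4 libraries only, a replicate block and leaving out each library.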

Additional observations from a re-analysis of the deposited data

How the results depend on the processing

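The numbers of calls in each direction depended on the scaling; 49149 gained and 16402 lost sites held under all 5 scalings. With factors from sites that had a peak in all 6 libraries, 102809 sites were gained and 19527 lost, 7774 genes were higher and 2198 lower, and 3087 windows were higher and 230 lower. With total counts 4931 genes were higher, and 1896 windows were higher and 1271 lower. An adjusted p under 0.01 with an absolute log2 change above 1 left 1491 genes higher and 3929 lower, and 434 windows higher and 454 lower. Windows of 1 Mb gave 435 higher and 1514 lower; these windows are fewer by construction. DESeq2 gave 51536 sites gained and 51554 lost. Leaving out each library in turn gave 55192 to 62900 gained and 40837 to 48457 lost sites, 2657 to 2892 genes higher and 8136 to 8566 lower, and 920 to 993 windows higher and 2190 to 2344 lower. Summed log2 changes that turned positive with shared-site factors were ARID1B 0.60, ATF3 0.90, AURKA 0.17, BUB1 0.095, DUSP1 0.33, EGR2 0.40, EGR3 0.72, FERMT3 0.36, FN1 0.31, GATA1 0.41, GSE1 0.020, HPRT1 0.088, IQSEC1 0.31, ITPR1 0.32, JUN 0.60, LASP1 0.43, LRRC37A2 0.53, MCM6 0.35, MMP9 0.93, PLAU 0.71, PRKCB 0.76, PRKCQ 0.50, RABGAP1L 0.27, RREB1 0.040, SDHA 0.32, SGMS1 0.024, SPRY2 0.33, TAL1 0.81, TIMP1 0.57, TMCC2 0.49, YWHAZ 0.19 and ZFPM2 0.0091. Those that turned positive with total counts were ARID1B 0.13, ATF3 0.44, JUN 0.14, LRRC37A2 0.060, MMP9 0.46, PLAU 0.25, PRKCB 0.29, PRKCQ 0.035, TAL1 0.34, TIMP1 0.10 and TMCC2 0.027. The settings were rerun on 75 named sites: the gene starts and the strongest sites of the leading genes, windows and runs. None of these changed direction, and 1 centromere site lost its call. They were chosen from the same data for their large changes, so a kept direction was likely in advance and is no separate support. Sites named only as the tallest, or only for a gene of a list, were not rerun in this way. Replicate numbers recur in the labels, but nothing says that they pair the libraries: deviations correlated at 0.0762 between 0 and 72 h. A replicate block gave 68570 gained and 52658 lost sites. Depth was lower in the untreated libraries, so a low site there rests on few counts.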

Other observations

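The class names of the authors' deposited table did not follow the direction of the counts in the same rows. In the authors' deposited table, 21227 tested sites are classed upLate, and 70.7% of them were gained and 28.2% lost at 72 h. Of 1990 sites classed downLate in the authors' deposited table, 71.3% were gained and 27.6% lost. The median percentile was 88.5 for upLate and 88.7 for downLate in the authors' deposited table, and 45.6 for the 140181 sites classed static. The median log2 fold change of the authors' deposited table was 2.28 in upLate and 2.3 in downLate. The classes were not used to choose or group sites in any comparison.

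Some gene starts outside the rule for named genes also opened under all 5 scalings, and they are given as chosen after their values were seen. The start of GZMB, a granule protease of cytotoxic cells, had 0.26 and 0.382 CPM untreated and 5.93 and 7.81 CPM at 72 h (log2 fold change 4.36 ± 0.37, edgeR adjusted p = 3.08e-09). The start of TREM1, a receptor of myeloid cells, had 0.65 and 0.287 CPM untreated and 5.23 and 5.55 CPM at 72 h. CPA4, a carboxypeptidase gene, went from 0.715 and 1.29 CPM to 10.8 and 15.3 CPM at its start.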
